A study of Mus musculus with 6 samples.

Results

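The 10 genes described here belong to the bone morphogenetic protein (BMP) pathway, and they were measured in epithelial cells of the mouse colon. They are the ligand genes Bmp2, Bmp3, Bmp4 and Bmp7, the type I receptor gene Bmpr1a, the inhibitory SMAD genes Smad6 and Smad7, and Id1, Id2 and Id3, which are transcribed in response to BMP signals. They were taken by name from 19938 genes that had a probe set of their own on the array. Where a gene has several probe sets, the one with the highest mean over all 6 arrays stands for it, and each of the 10 genes had just 1. The genes were listed with earlier results of these arrays known.

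The samples were EpCAM+CD45- cells sorted from the colon of wild-type male BALB/c mice aged 6 weeks. All mice had fasted for 36 h and were then given food again for 24 h before the colon was taken. The 3 samples of the antibiotics group came from mice treated with antibiotics during re-feeding, and the 3 samples of the re-fed group came from mice left untreated. The labels describe the 3 samples per group as biological replicates, but they name neither the antibiotics nor the number of mice in a sample. The spread given below is that between these samples. The comparison addresses how BMP pathway transcripts of the colonic epithelium after a fast differ when antibiotics accompany the food.

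BMP ligands are secreted dimers that join type I and type II receptor kinases. The active type I receptor phosphorylates SMAD1, SMAD5 and SMAD9, which enter the nucleus with SMAD4 and switch on target genes, among them the Id genes and the feedback inhibitors Smad6 and Smad7. In the intestine the signal is known to be strongest towards the lumen and weak at the crypt base, where stromal cells secrete BMP antagonists, and it restrains stem cells and favours differentiation. Much of the BMP4 of the gut is made by cells of the stroma, and BMP2 is made by surface epithelium as well.

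The label of the sorted cells was set against marker genes. Epcam averaged 12.12 ± 0.065 with antibiotics and 12.16 ± 0.11 in the re-fed group (log2 expression, SD, n = 3 each), and all 10 pan-epithelial markers exceeded 5.81, the log2 value below which genes were taken as dim (the floor). Of these 10 markers, 9 averaged lower with antibiotics. The 4 keratin genes Krt8, Krt18, Krt19 and Krt20 lay lower there without overlap, where 10.7% of all genes did, and none passed limma's adjusted threshold. Krt8 differed by just -0.069, antibiotics minus re-fed (limma adjusted p = 0.801). Ptprc, which encodes CD45, averaged 5.40 ± 0.12 with antibiotics and 5.44 ± 0.11 in the re-fed group, and it was 1 of 8 leukocyte markers below that floor among 10 measured. The leukocyte markers Cd68 and Cd3e lay above it, with means over 6 arrays of 7.09 and 6.29. Among markers of stroma and endothelium 7 of 14 lay below it, with the endothelial genes Cdh5 and Kdr among them. The other 7 lay above it, at 6.92 for Pdgfrb, 6.76 for Col1a1, 6.75 for Col3a1 and 6.66 for Col1a2. Acta2 stood at 6.38, Myh11 at 6.10 and the endothelial gene Pecam1 at 5.91. Antibiotics replicates 1 and 2 and re-fed replicates 2 and 3 hold values that look normalised in 1 run (the common run), and antibiotics replicate 3 and re-fed replicate 1 stand apart from it, so differences of the genes nearest to the threshold are also given within these 4 arrays.

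Of the 10 genes, 9 lay above the floor and were tested, and none of the 9 passed limma's test over all 12071 genes (Benjamini-Hochberg adjusted p under 0.05), where 0.058% of all genes passed. At an unadjusted p under 0.05 stood 4 of the 9, where 12.6% of all genes stood, and of the 4 there was 1 higher and 3 lower, where the shares of all genes were 5.3% and 7.32%. Of the 9, the genes nearest to the threshold were Smad7, Bmp3, Smad6 and Id1, with ranks 59, 114, 171 and 314 among the 12071 genes by unadjusted p. Bmp3 lay higher with antibiotics and Smad6, Smad7 and Id1 lower. Bmp3 passed within the common run, and these 4 genes passed when arrays were weighted by their fit, a setting under which 9.68% of all genes passed. The weights were 3.82, 0.687 and 0.330 for antibiotics replicates 1 to 3, and 0.495, 1.90 and 1.22 for re-fed replicates 1 to 3. The weighted antibiotics values thus rested mostly on replicate 1. The 3 antibiotics values did not overlap the 3 re-fed values in 5 of the 9 genes, 1 higher and 4 lower, where 8.88% of all genes were separated upwards and 10.7% downwards. In sorted cells measured in bulk, fewer cells of a type and less RNA per cell cannot be told apart.

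**Figure D1:**
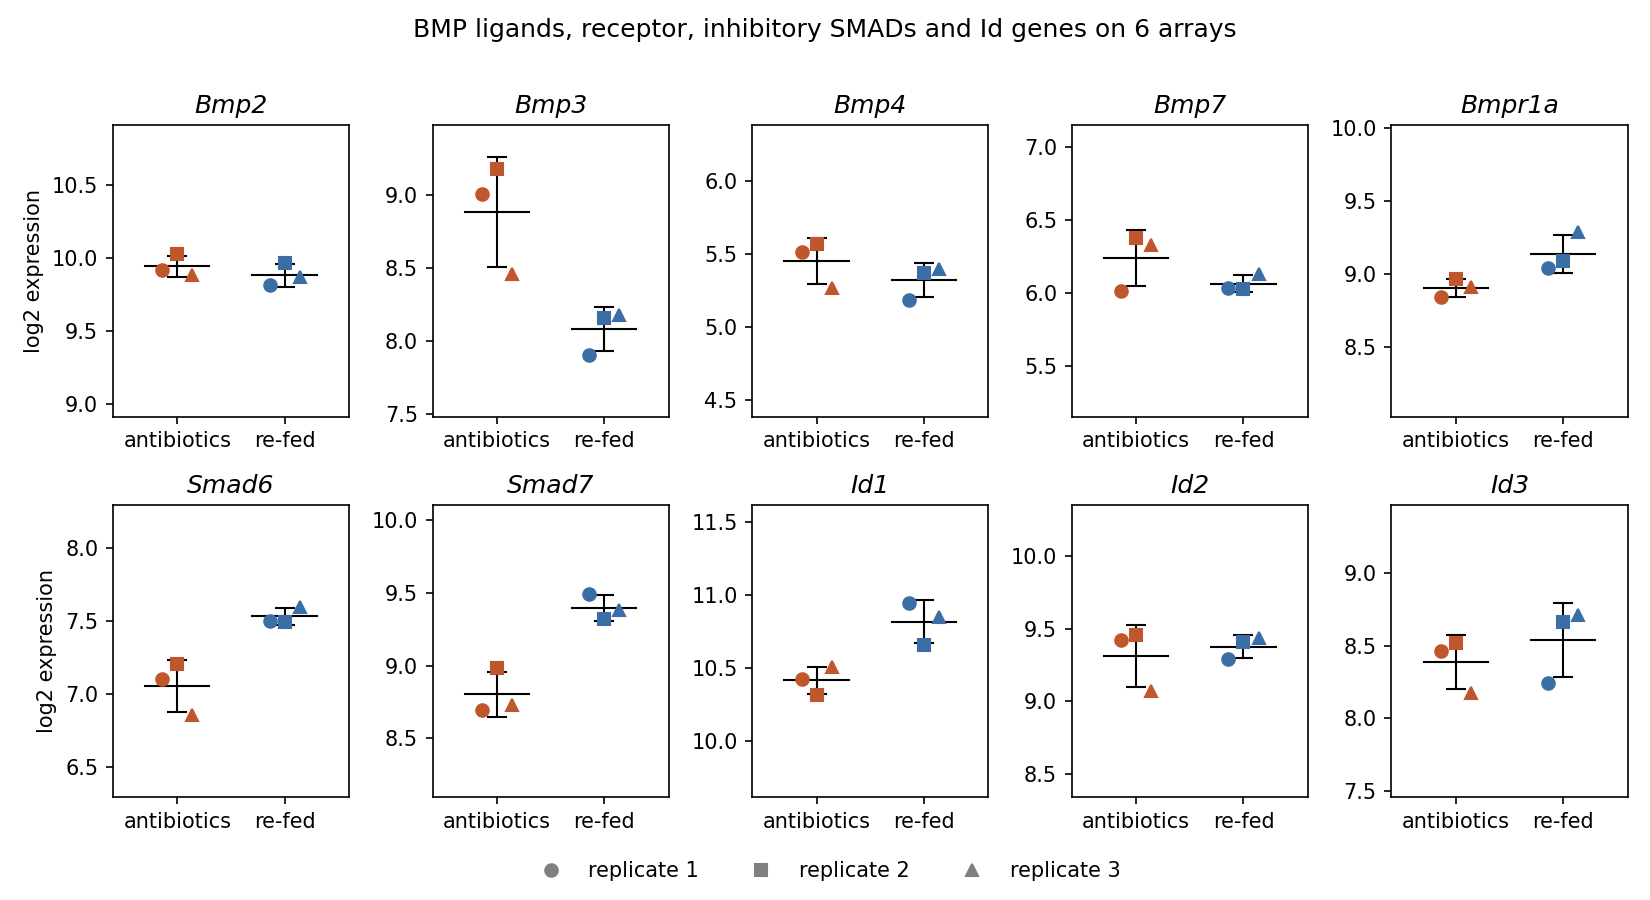
Log2 expression of the 10 genes on each array (points, shaped by replicate number), with the mean and SD of each group of 3. Every panel spans 2 log2 units. The 3 antibiotics points lie above the 3 re-fed points for Bmp3 and below them for Bmpr1a, Smad6, Smad7 and Id1, and the groups overlap for the other 5 genes.

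Among the ligands, Bmp3 had the largest difference of the 9 genes tested. BMP3 is an atypical member of the family that restrains signalling by other BMPs in bone. Bmp3 stood at 9.01, 9.18 and 8.46 in antibiotics replicates 1 to 3, against 7.90, 8.16 and 8.17 in re-fed replicates 1 to 3. All antibiotics values lay above all re-fed values, and antibiotics replicate 3 stood nearer to the re-fed group than the other two. The difference, antibiotics minus re-fed as in every difference below, was 0.80 (SE 0.18, 95% interval 0.40 to 1.21), a 1.74-fold higher level, with an adjusted p of 0.150 in limma.

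Within the common run Bmp3 rose by 0.93 (SE 0.11, 1.90-fold, limma adjusted p = 0.0287), where 0.447% of all genes passed, 0.108% in the upward direction. Bmp3 was the 1 gene of the 9 that passed there. Without antibiotics replicate 3, the difference was 1.02 with an adjusted p of 0.0626, and without antibiotics replicate 2 it was 0.65 with an adjusted p of 0.218. With the deposited scaling the Bmp3 values of the groups overlapped, and the difference was 0.62 over 6 arrays (SE 0.27, limma adjusted p = 0.990). That SE was the same for each of the 9 genes under this scaling, so it does not measure the spread of Bmp3 itself. The median of all genes tested shifted to -0.12 there, against 0.0033 after quantile normalisation, and relative to that median Bmp3 lay 0.74 higher.

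The other ligands showed no difference beyond the spread between arrays. Bmp2, a canonical ligand of BMPR1A, stood at 9.92, 10.02 and 9.88 with antibiotics, against 9.81, 9.96 and 9.87 in the re-fed group. The groups overlapped, and the difference was 0.063 (SE 0.10, 95% interval -0.16 to 0.29, limma adjusted p = 0.835), a value that turned to -0.12 with the deposited scaling. The median of all genes tested also stood at -0.12 under that scaling. Bmp7, whose product signals through several type I receptors, stood at 6.02, 6.38 and 6.33 with antibiotics, against 6.03, 6.03 and 6.13 in the re-fed group. Its groups also overlapped, and it differed by 0.18 (SE 0.12, 95% interval -0.09 to 0.45, adjusted p = 0.575). Bmp7 was the dimmest gene tested of the 9, with a mean over 6 arrays of 6.15, a little above the floor.

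Bmp4 was the 1 gene below the floor, with a mean over 6 arrays of 5.39. Its values were 5.52, 5.57 and 5.27 with antibiotics, against 5.19, 5.37 and 5.40 in the re-fed group, and the groups overlapped. A signal this dim on RMA values does not tell whether the gene was transcribed in the sorted cells, and no test of Bmp4 was made over 6 arrays beyond the setting with no floor, where its adjusted p was 0.797.

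Bmpr1a encodes the type I receptor through which the intestinal epithelium receives BMP2 and BMP4. It stood at 8.84, 8.96 and 8.91 with antibiotics, against 9.04, 9.09 and 9.29 in the re-fed group. The groups did not overlap, though antibiotics replicate 2 and re-fed replicate 1 were close. The difference was -0.23 (SE 0.11, 95% interval -0.47 to 0.0083, limma adjusted p = 0.412), a 1.18-fold lower level, and it was -0.28 within the common run (adjusted p = 0.261).

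The inhibitory SMADs lay lower with antibiotics by similar amounts. SMAD7 blocks type I receptors of both the BMP and the TGF-beta branch, and its gene is induced by both. Smad7 stood at 8.70, 8.98 and 8.73 with antibiotics, against 9.49, 9.32 and 9.38 in the re-fed group. The gap between the groups was wider than the range within either one. The difference was -0.60 (SE 0.11, 95% interval -0.85 to -0.34, 1.51-fold, limma adjusted p = 0.104), and it was -0.51 within the common run (adjusted p = 0.118).

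SMAD6 acts mainly on the BMP branch, by binding type I receptors and competing with SMAD4 for SMAD1. Smad6 stood at 7.10, 7.21 and 6.86 with antibiotics, against 7.50, 7.49 and 7.60 in the re-fed group. The groups did not overlap, and antibiotics replicate 3 was the lowest of the 6. The difference was -0.48 (SE 0.12, 95% interval -0.74 to -0.21, 1.39-fold, limma adjusted p = 0.179), and it was -0.39 within the common run (adjusted p = 0.142). Relative to the median of all genes, the deposited scaling gave -0.66 for Smad7, -0.48 for Smad6 and -0.47 for Id1. The adjusted p of limma under that scaling was 0.389 for Smad7 and 0.9997 for both Smad6 and Id1. Limma gave these genes the same SE there, 0.27, so these p do not reflect the spread of each gene between arrays.

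The Id genes encode helix-loop-helix proteins without a DNA-binding region, which pair with basic helix-loop-helix (bHLH) factors and keep them off DNA. The 3 Id genes differed in what they showed. Id1 stood at 10.42, 10.31 and 10.50 with antibiotics, against 10.94, 10.66 and 10.85 in the re-fed group. The groups did not overlap, and re-fed replicate 2 came nearest to the antibiotics values. The difference was -0.40 (SE 0.11, 95% interval -0.66 to -0.15, 1.32-fold, limma adjusted p = 0.227), and it was -0.38 within the common run (adjusted p = 0.166).

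Id2 stood at 9.42, 9.45 and 9.07 with antibiotics, against 9.29, 9.40 and 9.43 in the re-fed group. Antibiotics replicate 3 was the lowest and antibiotics replicate 2 the highest of the 6, and the difference was -0.061 (SE 0.13, 95% interval -0.34 to 0.22, limma adjusted p = 0.876). It was 0.017 within the common run and -0.24 with the deposited scaling. Id3 stood at 8.46, 8.52 and 8.18 with antibiotics, against 8.24, 8.66 and 8.71 in the re-fed group. The groups overlapped through antibiotics replicates 1 and 2 and re-fed replicate 1, and the difference was -0.15 (SE 0.15, 95% interval -0.49 to 0.19, limma adjusted p = 0.713). The intervals of Id1, Id2 and Id3 overlap, and whether the 3 differences differ from each other was not tested.

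**Figure D2:**
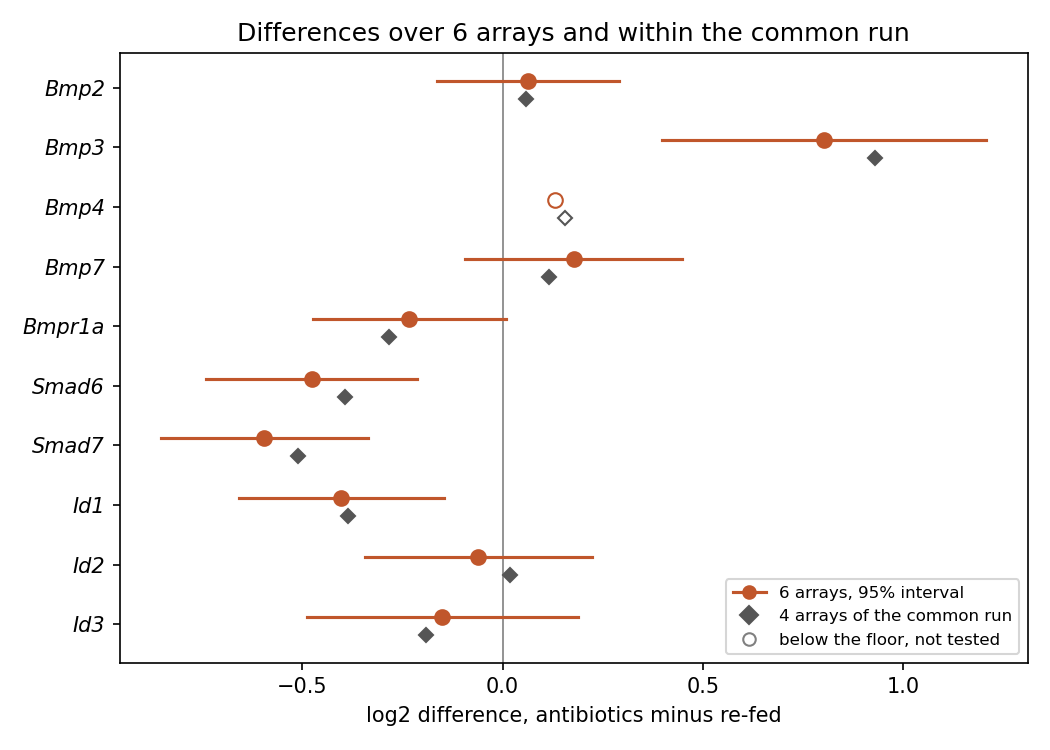
Log2 differences, antibiotics minus re-fed, of the 10 genes over 6 arrays (circles, with the 95% interval from limma) and within the 4 arrays of the common run (diamonds). Bmp3 lies at 0.80 and 0.93, Smad7 at -0.60 and -0.51, and Id2 changes sign between them. Open symbols mark Bmp4, which was below the floor.

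The bases before the start of 3 genes that respond to BMP are shown because they include 1 gene that lay lower without overlap, Smad6, and a pair whose groups overlapped, Id2 and Id3. The sequences are the 250 bases upstream of the annotated start in RefSeq's annotation of the mouse assembly GRCm38.p6, read 5′ to 3′ on the gene's strand, and 5 of the 10 genes had an entry. They lie at chr9:64022060-64022309 on the minus strand for Smad6, chr12:25096093-25096342 on the minus strand for Id2 and chr4:136143572-136143821 on the plus strand for Id3. Capitals mark matches on either strand to the GC-rich SMAD elements GGCGCC, which reads the same on both strands, and GGAGCC, which reads as its reverse complement on the other strand, and to the shorter SMAD element CAGAC. These motifs do not overlap each other in the 3 sequences.
Smad6: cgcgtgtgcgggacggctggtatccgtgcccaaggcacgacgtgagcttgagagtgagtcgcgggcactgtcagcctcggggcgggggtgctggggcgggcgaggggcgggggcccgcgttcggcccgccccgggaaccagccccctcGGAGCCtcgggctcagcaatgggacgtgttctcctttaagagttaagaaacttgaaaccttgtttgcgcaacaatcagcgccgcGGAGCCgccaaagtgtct
Id2: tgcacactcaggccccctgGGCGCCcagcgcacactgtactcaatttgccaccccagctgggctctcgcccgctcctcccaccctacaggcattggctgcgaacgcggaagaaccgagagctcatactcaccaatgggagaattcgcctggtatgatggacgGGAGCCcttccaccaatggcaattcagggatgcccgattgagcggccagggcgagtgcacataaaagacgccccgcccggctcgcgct
Id3: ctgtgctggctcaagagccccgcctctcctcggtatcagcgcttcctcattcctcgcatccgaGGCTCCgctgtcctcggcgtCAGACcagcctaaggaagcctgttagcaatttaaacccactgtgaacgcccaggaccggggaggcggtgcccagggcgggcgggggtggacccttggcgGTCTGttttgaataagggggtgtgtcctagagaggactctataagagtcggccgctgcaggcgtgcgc

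The Smad6 sequence holds GGAGCC at 2 places and neither of the other motifs. The Id2 sequence holds GGCGCC and GGAGCC at 1 place each and no CAGAC. The Id3 sequence holds GGAGCC once, on the opposite strand, and CAGAC at 2 places, once on each strand. Of 32851 mouse promoters with the same length of sequence, 9.59% hold GGCGCC, 26.0% hold GGAGCC and 42.2% hold CAGAC at least once. The matches describe letters in these windows, and no binding was measured.

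Of the ligands beyond the 4 above, 4 of 10 lay above the floor (Bmp6, Bmp8a, Bmp8b and Gdf7), with a median difference of 0.017, and none passed limma's test. Over this and the 5 lists below, the genes at an unadjusted p under 0.05 were Bmp8b, Fstl3, Skil, Hes1, Tcf3 and Atoh1, which is 6 of 45 tested or 13.3%, near the 12.6% of all genes. Groups without overlap stood at 6 of the 45 (13.3%), where 19.6% of all genes tested were separated in either direction. None of the 45 passed within the common run either, and 8 had the opposite sign there. Bmp8b averaged 7.50 ± 0.44 with antibiotics and 8.01 ± 0.23 in the re-fed group (SD, n = 3 each), with overlapping arrays and a difference of -0.50 (SE 0.21, limma adjusted p = 0.369). Bmp6 differed by 0.18 (adjusted p = 0.515), and it was the 1 of the 4 whose groups did not overlap. Gdf7 differed by 0.13 (adjusted p = 0.665).

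Of the other receptors and co-receptors, 9 of 11 were tested, none passed and none was separated between the groups. Their differences ran between -0.19 and 0.11 with a median of -0.021, beside a median of 0.0033 over all genes tested. The type I receptor gene Acvr1 differed by -0.19 (SE 0.11, limma adjusted p = 0.496), and the type II receptor genes Acvr2a and Bmpr2 by -0.19 and -0.13 (adjusted p = 0.570 and 0.647).

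Secreted antagonists keep BMP ligands from their receptors, and Bambi encodes a pseudoreceptor without a kinase. Of 17 listed, 10 were tested, with 6 above and 4 below 0 and a median of 0.083, and none passed. Fstl3, a follistatin-like protein that binds activins and related ligands, averaged 7.05 ± 0.031 with antibiotics and 6.71 ± 0.041 in the re-fed group (SD, n = 3 each). Its groups did not overlap, and the difference was 0.34 (SE 0.095, limma adjusted p = 0.222). Bambi and the follistatin gene Fst differed by 0.24 and 0.19 (adjusted p = 0.471 and 0.560), with overlapping groups.

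All 13 SMADs and SMAD regulators listed beside Smad6 and Smad7 were tested, with 5 above and 8 below 0 and a median of -0.025, and none passed. Skil encodes SnoN, a repressor of SMAD-driven transcription whose gene is itself induced by TGF-beta. It stood at 8.13 ± 0.12 with antibiotics and 8.63 ± 0.037 in the re-fed group, a difference of -0.50 (SE 0.10, limma adjusted p = 0.127). Its groups did not overlap, and it was the 1 of the 13 with this separation. The ubiquitin ligase gene Nedd4l differed by -0.18 (adjusted p = 0.595), and Smad4, the SMAD shared by both branches, by 0.14 (adjusted p = 0.615). The SMADs that carry the BMP signal differed by -0.025 for Smad1, 0.13 for Smad5 and -0.021 for Smad9.

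Of 8 other BMP targets 5 were tested and none passed, with 4 above and 1 below 0 and a median of 0.10. Hes1, a repressor of the secretory lineage that Notch also induces, averaged 8.57 ± 0.10 with antibiotics and 8.27 ± 0.14 in the re-fed group. Its groups did not overlap (0.30, SE 0.11, limma adjusted p = 0.331). Atoh8 and Msx1 differed by 0.18 and 0.10 (adjusted p = 0.629 and 0.786). Id4, the remaining gene of the Id family, differed by -0.044.

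Of 7 bHLH factors that Id proteins bind or restrain, 4 were tested, with a median of -0.026, and none passed. Tcf3, which encodes the E proteins E12 and E47, averaged 8.05 ± 0.16 with antibiotics and 7.68 ± 0.10 in the re-fed group, without overlap (0.37, SE 0.12, limma adjusted p = 0.266). Atoh1, the factor that commits cells to the secretory lineage, differed by -0.47 (SE 0.21, adjusted p = 0.387) with overlapping groups. Within the common run Atoh1 differed by -0.76 (adjusted p = 0.128), without overlap, where the groups of 50.6% of all genes did not overlap. Tcf4 lay lower without overlap (-0.14, adjusted p = 0.620), and its difference within the common run was -0.045. Ascl2, Neurog3 and Neurod1 lay below the floor.

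**Figure D3:**
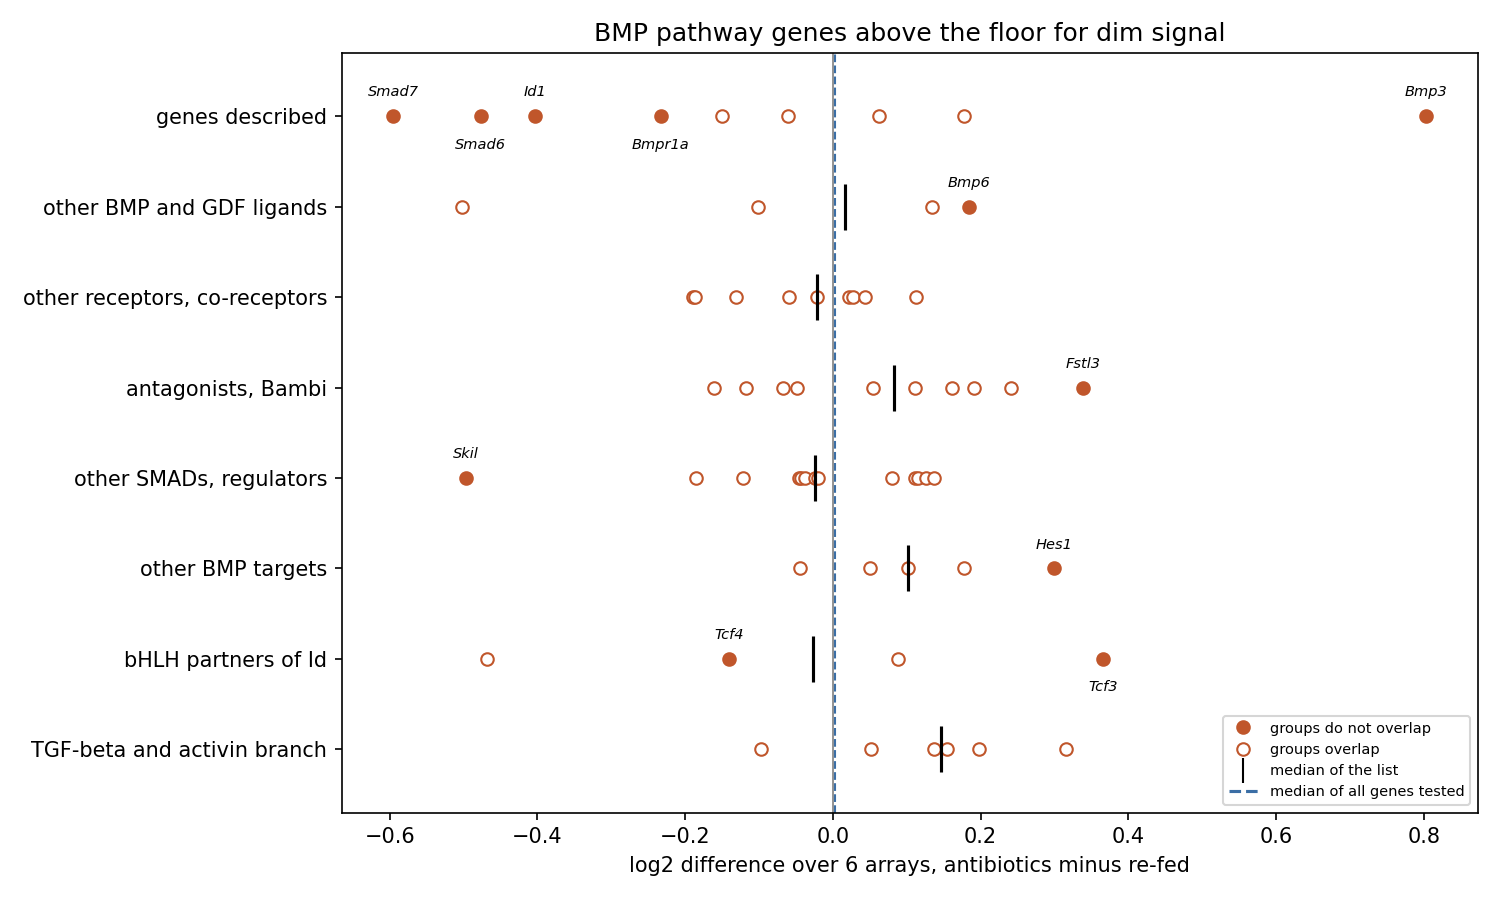
Log2 differences, antibiotics minus re-fed, over 6 arrays for each pathway gene above the floor, 1 row per list. Filled points, with names, are genes whose groups do not overlap, black bars are the medians of the lists and the dashed line is the median of all genes tested, 0.0033. Smad7, Smad6, Id1 and Bmpr1a lie to the left of 0 in the top row with Bmp3 far to the right, and most genes of the other rows lie within 0.2 of 0.

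The genes whose arrays ran most like those of Bmp3, Smad7 and Smad6 were picked by the lowest mean absolute difference between the deviations of both genes from their own means over 6 arrays, among all genes tested. For Bmp3 they were Naaladl1, a peptidase gene of the gut, Lrrc49 and the corepressor gene Irf2bp2, with mean differences of 0.11, 0.13 and 0.15 log2 units. For Smad7 they were Gpsm2, which orients the mitotic spindle, the receptor kinase gene Grk5 and Plek2, at 0.021, 0.052 and 0.057. For Smad6 they were the galectin gene Lgals3, the galactosyltransferase gene B3galt5 and Samd8, at 0.045, 0.045 and 0.046. None of these 9 passed the test, and their adjusted p in limma lay between 0.0692 for Naaladl1 and 0.310 for Lrrc49.

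Markers of epithelium, of position along the crypt and of stroma are set beside Smad6, Smad7 and Id1 here. The summed linear signal of the 10 pan-epithelial markers ranged from 51792 to 56261 with antibiotics and from 57837 to 59734 in the re-fed group, without overlap. Such a sum weighs the brightest genes most. The groups overlapped for Epcam, Cdh1, Cldn3, Cldn7, Vil1 and Elf3, with differences from -0.17 for Vil1 to 0.081 for Cldn3. Krt20 is in both this list and that of surface colonocytes. Among the 4 keratin genes named above, Krt18 had the largest difference (-0.59, limma adjusted p = 0.0692). Of 8 markers of surface colonocytes, 5 lay below 0, and 3 lay lower with antibiotics without overlap, where 10.7% of all genes did, namely Krt20 (-0.46, SE 0.12, limma adjusted p = 0.203), Slc20a1 (-0.43, adjusted p = 0.240) and Aqp8 (-0.29, adjusted p = 0.289). The summed linear signal of the 8 ranged from 55528 to 61679 with antibiotics and from 61008 to 66432 in the re-fed group, and Slc26a3, Car4 and Ceacam20 lay on the other side of 0. Of 6 crypt-base markers tested, 4 lay above 0, and Sox9 (-0.31) and Axin2 (-0.070) lay below. The 4 above 0 each had an unadjusted p under 0.05 in limma, where 5.3% of all genes did in that direction. Myb (0.51, adjusted p = 0.240) and Smoc2 (0.31, adjusted p = 0.295) lay higher without overlap, where 8.88% of all genes did. The groups overlapped for Mki67 (0.50, adjusted p = 0.387) and Cdca7 (0.33, adjusted p = 0.346). Within the common run Myb differed by 0.33, Smoc2 by 0.25, Cdca7 by 0.22, Mki67 by 0.11, Sox9 by -0.030 and Axin2 by -0.46. The Axin2 groups did not overlap there, and neither did those of 50.6% of all genes. The sum over all 8 ranged from 1615 to 2184 with antibiotics and from 1481 to 1960 in the re-fed group. Of 7 markers of stroma and endothelium tested, 6 lay above 0 and 1, Pecam1, below, with a median of 0.14. Pecam1 (-0.44) lay below the floor on all antibiotics arrays and exceeded it in the mean through the re-fed group, so no test of it is given. The endothelial genes Kdr and Cdh5, both below the floor, differed by 0.18 and -0.14. The sum over 14 markers of stroma and endothelium ranged from 918 to 1009 with antibiotics and from 882 to 1011 in the re-fed group. None of these markers passed the test, and their part in the differences of Smad6, Smad7 and Id1 was not tested.

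The directions of Bmp3, Bmp4, Bmp7, Bmpr1a, Smad6, Smad7, Id1 and Id3 held under every alternative run for each, and those of Bmp2 and Id2 did not. The other floors, the replicate block and the mean of probe sets left each difference they covered as it was. For Bmp3, Bmpr1a, Smad6, Smad7 and Id1, whose groups do not overlap, leaving out or weighting arrays could not change the sign either. For these genes only the deposited scaling could have changed it. Over the fits that leave out 1 array, the difference ranged from 0.65 to 1.02 for Bmp3, from -0.68 to -0.54 for Smad7, from -0.55 to -0.38 for Smad6 and from -0.48 to -0.34 for Id1. In these fits no gene of the 9 passed. The smaller differences moved by more, with Id3 from -0.30 to -0.046 and Bmp7 from 0.11 to 0.29 over these fits, and Bmp7 stood at 0.026 with array weights.

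**Figure D4:**
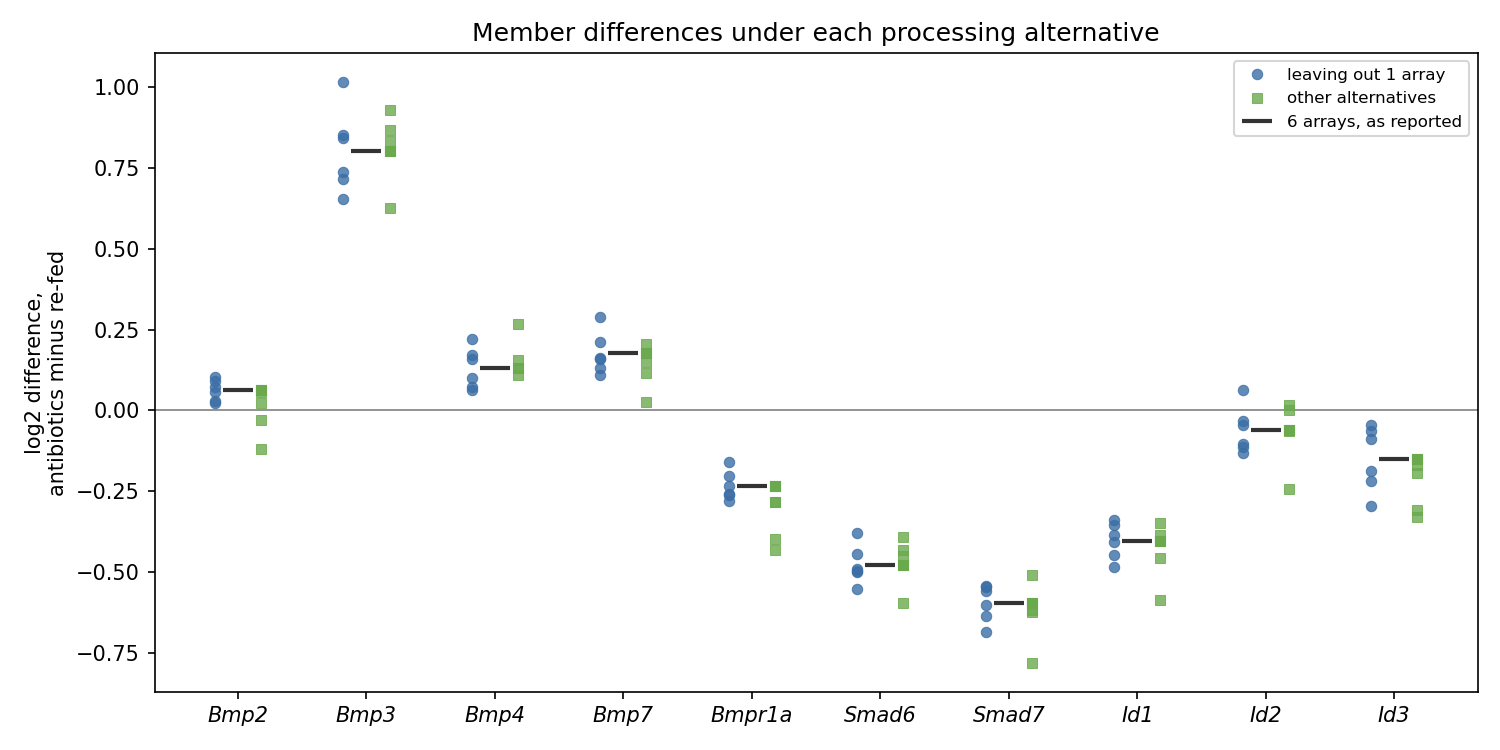
Log2 differences, antibiotics minus re-fed, of the 10 genes as reported over 6 arrays (black bars), in the 6 fits that leave out 1 array (circles) and under the other alternatives (squares). The values of Bmp3 stay between 0.62 and 1.02 and those of Smad7 between -0.78 and -0.51, while those of Bmp2 and Id2 lie on both sides of 0.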

How the data were processed

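Per the labels' protocols, 6 µg of total RNA per sample gave biotinylated cRNA for Affymetrix arrays. The authors deposited log2 values made with RMA for 35557 probe sets, per the submitters' processing notes, and no version is stated. The array medians ran between 5.63 and 6.17. The arrays of the common run shared 372 to 435 distinct values per pair, antibiotics replicate 3 shared 42 to 67 with any other array and re-fed replicate 1 shared 154 to 198 with the common run. Antibiotics replicate 3 held 10829 distinct values and each other array at least 34568, which alone leaves fewer to share. The run was inferred from these values, not from a label.

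The values were quantile normalised over 23410 probe sets with a gene. Of these, 21789 named 1 gene, 21698 of them were matched by Entrez identifier to RefSeq's table of GRCm38.p6 and 0 symbols changed. The floor was the 40th percentile of probe set means (5.81), which 12071 genes reached. The test was limma's (version 3.58.1, R 4.3.3) with lmFit and eBayes, two-sided, without a block, adjusted by Benjamini-Hochberg over the 12071 genes, at a threshold of 0.05. The procedure was also run on simulated data with the same spread on every array. The differences planted there were larger than those of the genes described over 6 arrays, so that run does not show how the test performs at these sizes. Errors are the SD of 3 arrays or limma's moderated SE, fold changes are the higher over the lower level, and the number of arrays limits the precision. Same-numbered replicates were taken as unpaired. Their deviations from the group means correlated at 0.021, -0.034 and -0.22, and those of unlike numbers at -0.17 to 0.24. With 3 arrays per group, these correlations cannot show whether the samples were paired.

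The 10 genes, the 7 pathway lists and the 6 marker lists were chosen with earlier results of these data known. The genes named were the 10 genes whatever their values, up to 3 genes of each pathway list with the smallest unadjusted p, any past the threshold, the marker genes, and the 3 genes most like each of the 3 genes with the largest differences. Slc26a3, Car4, Ceacam20, Cdh5, Kdr, Id4, Bmp8a, Ascl2, Neurog3, Neurod1, Smad1, Smad5 and Smad9 were named from their lists after their values were seen. So were Cd68, Cd3e and the markers of stroma and endothelium above the floor. The alternatives were another scaling, other floors, array weights, the common run, a replicate block, the mean of probe sets and leaving out each array.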

Additional observations from a re-analysis of the deposited data

How the results depend on the processing

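No gene of the 9 passed over 6 arrays, and with array weights 4 passed, namely Bmp3 (0.87), Smad6 (-0.43), Smad7 (-0.62) and Id1 (-0.35). Most of the weight of the antibiotics group lay on replicate 1 in that setting. In the common run 1 passed, Bmp3, and in that run with the deposited scaling 1 passed, again Bmp3 (0.83). The count over all genes was 7, with 45 under the deposited scaling, 2 with no floor, 43 with the stricter floor, 1169 with array weights, 54 in the common run and 63 in that run with the deposited scaling. It was 0 to 11 when 1 array was left out. It was 0 in limma without antibiotics replicate 1, where 1040 genes had an unadjusted p under 0.05. Separated groups were found for 5 of the 9 genes (19.6% of all genes), for 3 with the deposited scaling (6.69%), which ended the separation of Bmp3 and Bmpr1a, for 5 to 6 when 1 array was left out (26.0% to 33.5%), for 6 in the common run (50.6%) and for 7 in that run with the deposited scaling (55.2%). The sign of Bmp2 changed under the deposited scaling, to -0.12 over 6 arrays and -0.030 over the 4 of the common run. The median of all genes tested stood at -0.12 and -0.027 there, and relative to it Bmp2 lay at -0.00089 over 6 arrays. Id2 turned to 0.0019 with array weights and to 0.017 in the common run, and ran from -0.13 to 0.062 when 1 array was left out, above 0 without antibiotics replicate 3. The cause of these changes was not tested. With a replicate block, made from the replicate numbers, 0 of the 9 genes and 7 of all genes passed. The stricter floor left out Bmp7. There were 3 arrays per group, 1 of them apart from the common run in each, which limits what can be called.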

Other observations

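The TGF-beta and activin branch, which shares SMAD4 and SMAD7 with the BMP branch, was also measured. Of its 12 listed genes 6 were tested, with 5 above and 1 below 0 and a median difference, antibiotics minus re-fed, of 0.15. None passed limma's test over all genes. At an unadjusted p under 0.05 stood 1 of the 6 (Tgif1), where 12.6% of all genes stood, and none had groups without overlap, where 19.6% of all genes did. So few genes cannot be told from these shares. Tgif1, a repressor of TGF-beta targets, averaged 9.00 ± 0.18 with antibiotics and 8.69 ± 0.18 in the re-fed group (SD, n = 3 each), a difference of 0.32 (SE 0.13, adjusted p = 0.377). The receptor genes Tgfbr2 and Tgfbr1 differed by 0.15 and 0.20 (adjusted p = 0.580 and 0.582). The activin subunit genes Inhba and Inhbb lay below the floor.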
